A study of Mus musculus with 10 samples.

Results

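MAP kinases relay signals from surface and endosomal receptors to transcription, and the dual-specificity phosphatases (DUSPs) switch them off by removing the activating phosphates. The transcripts described here are those of 9 genes: Mapk14 (p38α), Mapk3 (ERK1), Mapk8 (JNK1), Mapkapk2 (MK2, a kinase that p38 activates), and the phosphatases Dusp1, Dusp2, Dusp4, Dusp5 and Dusp6. They were taken by name, and the probe set of each gene was chosen by its measured level, as the one with exactly 1 gene symbol and the highest mean over the 10 arrays. A probe set was found for 8 of the 9, out of 22180 genes in all, and all 8 were among the 13371 genes tested. Mapk3 had no probe set of 1 symbol in the annotation used and was not analysed here.

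Splenic CD11c+ dendritic cells (DCs) were isolated with magnetic beads from C3ar1-/-C5ar1-/- mice, abbreviated DRKO in the labels, or from wild-type (WT) mice. The animals had been injected 4 h earlier with 100 µg of CpG, a DNA that carries the unmethylated motif sensed by TLR9, or with vehicle; the vehicle samples are called unstimulated. The 4 groups were DRKO CpG (n = 3), DRKO unstimulated (n = 2), WT CpG (n = 3) and WT unstimulated (n = 2), with 1 Affymetrix Mouse Gene 2.0 ST array per sample. The labels give no age and do not say how the alleles were made, whether the mice shared a litter, or whether each sample came from its own animal, so p-values measure the spread between these samples only. Values are log2 intensities, so a difference of 1 is a doubling, and levels of different genes are not compared.

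C3ar1 and C5ar1 encode the receptors for the complement fragments C3a and C5a, G protein-coupled receptors that can signal to MAP kinases. In DCs, TLR9 acts through MyD88 and the kinase TAK1 on the p38, JNK and ERK cascades, and these shape cytokine production and the life of cytokine mRNAs. DUSP1 acts on p38 and JNK in the nucleus. DUSP2, DUSP4 and DUSP5 are nuclear phosphatases, the last of them for ERK, and DUSP6 removes phosphate from ERK in the cytoplasm. The transcripts of several DUSPs are themselves targets of the kinases they switch off. Transcript levels do not show phosphorylation, which was not measured here.

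Promoter windows are printed for Mapk14 and Dusp6, whose transcripts fell with CpG, and for Dusp5 and Dusp1, whose windows held a searched motif. RefSeq windows on build GRCm38.p6 held 250 bases before to 50 bases after the start for 7 of the genes, all but Dusp4 and Mapk3. Dusp6, the transcript with the largest decrease of the 8, has its window at chr10:99262981-99263280 on the plus strand. Mapk14 has a pair of windows on the plus strand, at chr17:28691092-28691391 and chr17:28692318-28692617. Dusp5 has its window at chr19:53528895-53529194 on the plus strand, and Dusp1 at chr17:26508423-26508722 on the minus strand. Each sequence is given 5′ to 3′ on the strand of the gene, with matches to a searched motif in capitals.
Dusp6: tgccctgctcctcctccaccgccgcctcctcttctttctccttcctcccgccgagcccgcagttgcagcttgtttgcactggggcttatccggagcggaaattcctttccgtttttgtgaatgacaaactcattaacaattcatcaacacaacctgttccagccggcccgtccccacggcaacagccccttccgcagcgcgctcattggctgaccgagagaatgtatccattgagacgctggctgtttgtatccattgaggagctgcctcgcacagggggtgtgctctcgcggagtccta
Mapk14, first window: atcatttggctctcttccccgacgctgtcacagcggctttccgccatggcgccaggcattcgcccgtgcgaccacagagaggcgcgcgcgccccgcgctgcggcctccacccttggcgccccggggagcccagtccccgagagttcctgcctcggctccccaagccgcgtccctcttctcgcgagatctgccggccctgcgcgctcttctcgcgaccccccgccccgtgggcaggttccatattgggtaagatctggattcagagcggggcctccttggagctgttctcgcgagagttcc
Mapk14, second window: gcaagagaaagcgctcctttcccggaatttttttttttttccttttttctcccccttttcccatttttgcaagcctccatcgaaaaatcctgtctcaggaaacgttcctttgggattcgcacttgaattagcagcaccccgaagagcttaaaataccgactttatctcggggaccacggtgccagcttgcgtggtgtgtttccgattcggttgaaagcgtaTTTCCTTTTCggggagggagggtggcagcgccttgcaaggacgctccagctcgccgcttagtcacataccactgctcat
Dusp5: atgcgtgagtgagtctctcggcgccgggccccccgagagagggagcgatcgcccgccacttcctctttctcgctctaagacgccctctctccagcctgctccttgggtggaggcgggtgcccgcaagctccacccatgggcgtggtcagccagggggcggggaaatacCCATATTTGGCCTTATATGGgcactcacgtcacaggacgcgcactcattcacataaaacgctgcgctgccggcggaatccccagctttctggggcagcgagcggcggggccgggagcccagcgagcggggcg
Dusp1: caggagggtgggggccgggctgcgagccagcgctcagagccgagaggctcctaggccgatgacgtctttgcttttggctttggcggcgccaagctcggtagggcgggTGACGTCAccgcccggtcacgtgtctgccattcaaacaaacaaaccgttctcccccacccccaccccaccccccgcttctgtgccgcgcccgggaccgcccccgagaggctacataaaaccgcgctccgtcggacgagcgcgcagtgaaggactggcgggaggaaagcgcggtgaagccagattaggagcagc

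5 motifs were searched on both strands: the cAMP response element TGACGTCA, the AP-1 element TGANTCA, the interferon-stimulated element of 2 GAAA repeats spaced by 2 bases, the NF-kB site and the CArG box bound by serum response factor. Dusp5 held 2 adjacent CArG boxes, at positions -82 and -72 from the start, and 1.63% of all 32851 windows held such a box. Dusp1 held a cAMP response element at -143, found in 1.79% of windows. The second Mapk14 window held the interferon-stimulated element on its minus strand at -29, against 3.44% of windows. The Dusp6, Dusp2, Mapkapk2 and Mapk8 windows held none of the 5, and the AP-1 element (7.81% of windows) and the NF-kB site (8.46%) were in none of the 9 windows of these genes. A match is a stretch of letters, and binding was not measured.

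The arrays were alike in scale, with medians of 5.50 to 5.56. Their number, 2 or 3 a group, limits the precision. All 8 genes lay above the array median on all 10 arrays. Of the targeted genes, C3ar1 lay at 5.34 to 5.61 in DRKO CpG, 5.27 to 5.64 in DRKO unstimulated, 6.14 to 6.59 in WT CpG and 5.80 to 5.95 in WT unstimulated arrays, and C5ar1 at 4.72 to 4.99, 4.42 to 4.56, 5.51 to 7.32 and 5.75 to 6.02 in the same order. The DRKO arrays were lower for both, but how the probes lie relative to the deleted parts is not stated, and these levels are no check of the labels. Of 14 conventional DC markers tested, 13 or 14 were above the array median on every array. So were 17 or 18 of 18 splenic macrophage, 7 of 7 monocyte, 5 of 5 plasma cell and 7 or 8 of 8 plasmacytoid DC markers. The counts ran from 8 to 17 of 18 for neutrophil, 9 to 12 of 12 for B cell, 6 to 10 of 10 for T cell and 6 to 9 of 9 for NK cell markers. Such counts therefore do not set conventional DCs apart. The plot of marker levels gives the neutrophil and splenic macrophage lists per array.

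**Figure D1:**
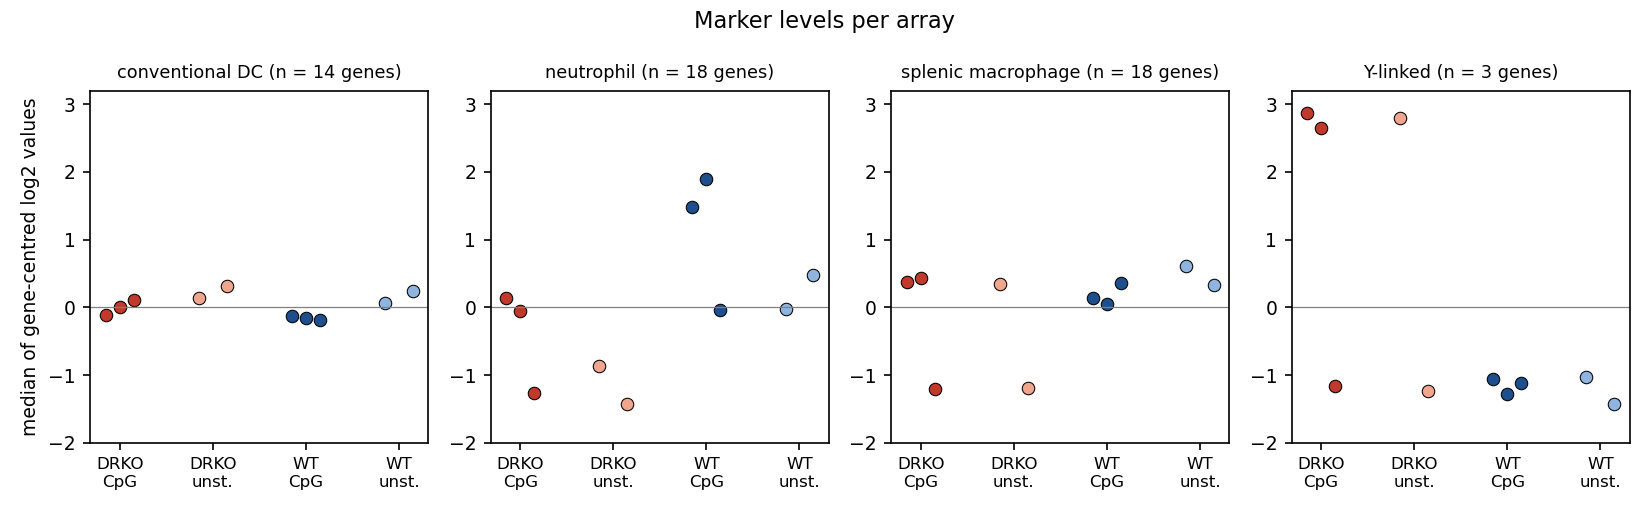
Level of 4 marker lists on each array, as the median over the list of gene-centred log2 values; each point is 1 array. The neutrophil list was higher in WT CpG 1 and WT CpG 2 than on any other array, the splenic macrophage list was low in DRKO unstimulated 2 and DRKO CpG 3, and Y-linked signal was present in DRKO CpG 1, DRKO CpG 2 and DRKO unstimulated 1.

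2 features of the arrays were unevenly spread over the groups. Y-linked genes gave signal on DRKO CpG 1, DRKO CpG 2 and DRKO unstimulated 1 and on none of the other 7 arrays, while the labels state no sex. Xist, the marker used here for X inactivation, split the arrays the same way in reverse. It measured 4.91, 4.32 and 4.61 on those 3 arrays, in the same order, and 10.41 to 10.85 on the other 7. By both markers, every WT array fell with DRKO CpG 3 and DRKO unstimulated 2, so the DRKO groups were mixed and the WT groups were not. DRKO CpG 3, DRKO unstimulated 2 and WT CpG 3 have sample numbers of 20 and over in their titles, and the splenic macrophage markers were low in the first and second of these, at -1.20 and -1.18, against 0.05 to 0.62 on the other 8 arrays. Among the DRKO arrays, those with Y-linked signal were also those numbered under 20 and those with the higher macrophage markers. Within DRKO, Y-linked signal, title series and macrophage level therefore cannot be told apart. The labels name a kit for a first batch without saying which samples it held, so the title numbers are only a stand-in for batches. In these bulk samples, fewer cells of a type and less RNA per cell cannot be told apart.

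CpG left Mapk14 and Dusp6 lower and Dusp2 and Dusp5 higher in both genotypes, as the plot of levels by array shows. Mapkapk2 also passed the test as an increase in DRKO DCs. Mapk8, Dusp1 and Dusp4 did not pass in either genotype. A call means an adjusted p under 0.05 from limma across all genes tested. In DRKO DCs 5 of the 8 were called, 3 higher and 2 lower, where 10.3% of all genes were called (4.54% higher and 5.76% lower). In WT DCs 4 of the 8 were called, 2 higher and 2 lower, where 21.6% of all genes were called (8.24% higher and 13.3% lower). The median CpG effect over the 8 was 0.10 in DRKO and 0.05 in WT DCs, against -0.04 over all genes in each.

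**Figure D2:**
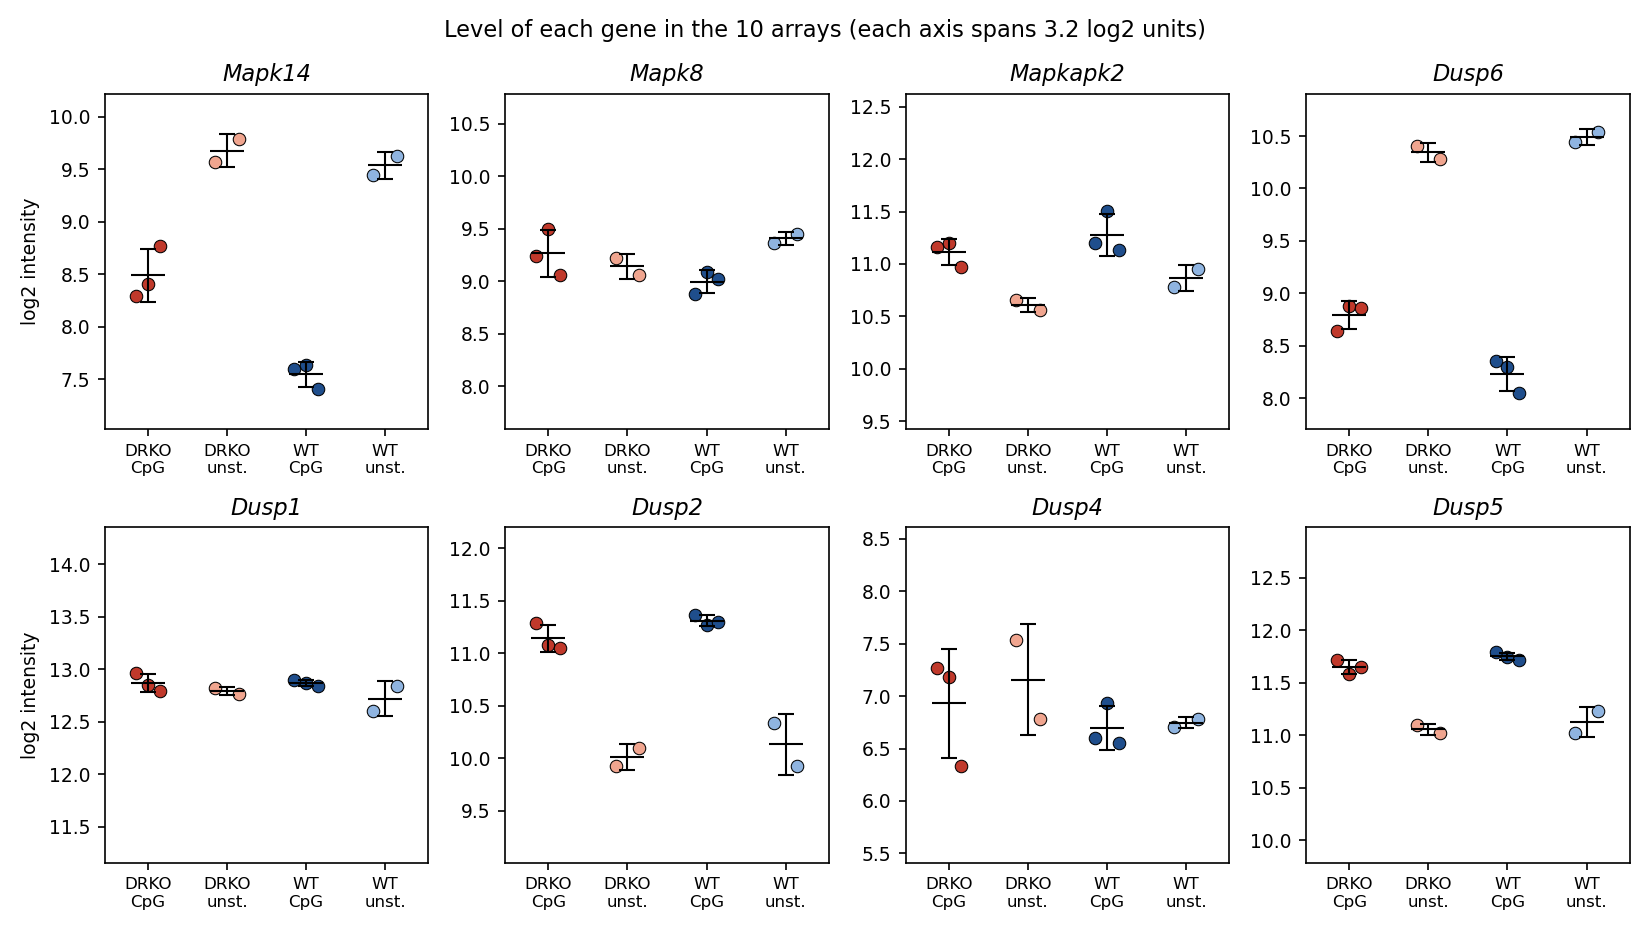
Log2 intensity of the 8 genes on each array, with DRKO groups left of WT groups and CpG left of unstimulated; points are arrays, and the bar and whiskers are the mean ± SD (n = 3 for CpG, n = 2 for unstimulated). All axes span the same range: Mapk14 and Dusp6 are lower with CpG in both genotypes, and lie higher in DRKO CpG than in WT CpG arrays, while Dusp1 spans only 12.60 to 12.96.

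Among the kinases, Mapk14, which encodes p38α, measured 8.29, 8.41 and 8.77 in DRKO CpG and 9.57 and 9.79 in DRKO unstimulated arrays. It measured 7.60, 7.63 and 7.41 in WT CpG and 9.44 and 9.63 in WT unstimulated arrays. Neither pair of groups overlapped, as was the case for 37.7% of all genes in DRKO and 52.4% in WT DCs. Mapk14 changed by -1.19 ± 0.16 (SE) in DRKO DCs, 2.28-fold lower with CpG (adjusted p = 0.00179), and by -1.99 ± 0.16 in WT DCs, 3.97-fold lower (adjusted p = 6.46e-05). Both decreases passed in all 23 alternative fits, between -1.33 and -1.08 in DRKO and between -2.08 and -1.90 in WT DCs.

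Mapk8, which encodes the stress-activated kinase JNK1, stayed within 8.88 to 9.50 on the 10 arrays. It measured 9.24, 9.50 and 9.06 in DRKO CpG and 9.22 and 9.06 in DRKO unstimulated arrays, and 8.88, 9.09 and 9.02 in WT CpG and 9.36 and 9.45 in WT unstimulated arrays. The DRKO groups overlapped, and the WT CpG arrays all lay below the WT unstimulated arrays. The CpG effect was 0.12 ± 0.14 in DRKO (95% interval -0.19 to 0.44, adjusted p = 0.669) and -0.41 ± 0.14 in WT DCs (-0.73 to -0.09, adjusted p = 0.0663). The WT value passed in 7 of 23 alternative fits, among them those without DRKO CpG 2 (-0.41, adjusted p = 0.0443) and without DRKO CpG 3 (-0.41, adjusted p = 0.0411). These arrays are outside the WT contrast, so the value was unchanged. It passed in no fit that left out a WT array, and without 1 array the adjusted p reached 0.273.

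Mapkapk2 encodes MK2, through which p38 prolongs the life of cytokine mRNAs. It measured 11.16, 11.20 and 10.97 in DRKO CpG and 10.65 and 10.56 in DRKO unstimulated arrays, and 11.20, 11.50 and 11.13 in WT CpG and 10.78 and 10.96 in WT unstimulated arrays. The CpG arrays were the higher ones in both genotypes, without overlap. The increase was 0.50 ± 0.14 in DRKO (adjusted p = 0.0477) and the value 0.41 ± 0.14 in WT DCs (adjusted p = 0.0635). The DRKO call sat at the threshold: it passed in 8 of 23 alternative fits, with values of 0.38 to 0.57. It was lost without DRKO CpG 1 (0.48), DRKO CpG 2 (0.46), DRKO unstimulated 1 (0.55) or DRKO unstimulated 2 (0.46). With the value unchanged at 0.50, it was also lost without WT CpG 1, WT CpG 3, WT unstimulated 1 or WT unstimulated 2. The WT value passed in 7 of 23.

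Among the phosphatases, Dusp6 showed the largest effect of the 8 genes. It measured 8.64, 8.88 and 8.86 in DRKO CpG and 10.41 and 10.28 in DRKO unstimulated arrays, and 8.36, 8.30 and 8.05 in WT CpG and 10.44 and 10.54 in WT unstimulated arrays. CpG and unstimulated arrays were more than 1 log2 unit apart in both genotypes. Dusp6 changed by -1.55 ± 0.13 in DRKO DCs, 2.93-fold lower (adjusted p = 0.000259), and by -2.26 ± 0.13 in WT DCs, 4.78-fold lower (adjusted p = 2.65e-05), and both passed in all 23 alternative fits. Dusp6 alone of the 8 had another probe set, which lay below the array median on all 10 arrays and averaged 4.48 in DRKO CpG, 4.97 in DRKO unstimulated, 4.52 in WT CpG and 5.29 in WT unstimulated arrays. The mean of both probe sets gave -1.02 in DRKO and -1.52 in WT DCs.

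Dusp2, a nuclear phosphatase abundant in activated leukocytes, measured 11.29, 11.08 and 11.05 in DRKO CpG and 9.93 and 10.10 in DRKO unstimulated arrays. It measured 11.37, 11.27 and 11.30 in WT CpG and 10.34 and 9.93 in WT unstimulated arrays. All 6 CpG arrays lay above all 4 unstimulated arrays. The increase was 1.13 ± 0.14 in DRKO (2.19-fold, adjusted p = 0.00149) and 1.18 ± 0.14 in WT DCs (2.27-fold, adjusted p = 0.000374). Dusp2 passed in all 23 alternative fits in both genotypes.

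Dusp5, a nuclear ERK phosphatase, whose promoter window carries the paired CArG boxes, measured 11.72, 11.59 and 11.65 in DRKO CpG and 11.10 and 11.02 in DRKO unstimulated arrays. It measured 11.79, 11.75 and 11.72 in WT CpG and 11.02 and 11.23 in WT unstimulated arrays, so that CpG arrays again lay above all unstimulated arrays. The increase was 0.59 ± 0.11 in DRKO (1.51-fold, adjusted p = 0.00908) and 0.63 ± 0.11 in WT DCs (1.54-fold, adjusted p = 0.00308). In WT DCs it passed in all 23 alternative fits. In DRKO DCs it missed the threshold without DRKO unstimulated 2 (0.56, adjusted p = 0.0701), with only the DRKO groups in the fit (0.59, adjusted p = 0.0625), with only samples numbered under 20 (0.56, adjusted p = 0.0682) and without DRKO unstimulated 2 and DRKO CpG 3 together (0.56, adjusted p = 0.0632).

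Dusp1, whose product dephosphorylates p38 and JNK and limits cytokine production in macrophages, varied least of the 8. It measured 12.96, 12.85 and 12.79 in DRKO CpG, 12.82 and 12.76 in DRKO unstimulated, 12.90, 12.86 and 12.84 in WT CpG and 12.60 and 12.84 in WT unstimulated arrays. The CpG effect was 0.07 (95% interval -0.18 to 0.33, adjusted p = 0.763) in DRKO and 0.15 (-0.10 to 0.41, adjusted p = 0.412) in WT DCs. The intervals at 4 h ran no further than 0.41 on the log2 scale from 0 in either direction.

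Dusp4, an inducible nuclear phosphatase, was the most variable of the 8 within groups. It measured 7.27, 7.19 and 6.34 in DRKO CpG and 7.53 and 6.78 in DRKO unstimulated arrays, and 6.60, 6.93 and 6.55 in WT CpG and 6.71 and 6.79 in WT unstimulated arrays. The 3 highest arrays were DRKO unstimulated 1, DRKO CpG 1 and DRKO CpG 2, the arrays with Y-linked signal, and the other 7 were at most 6.93. Its CpG effect was -0.23 ± 0.29 in DRKO (adjusted p = 0.696) and -0.05 ± 0.29 in WT DCs (adjusted p = 0.929). DRKO minus WT after CpG was 0.24 ± 0.26 (adjusted p = 0.742). With Y-linked signal as a covariate it was -0.30 (adjusted p = 0.317), the 1 of 23 alternatives that changed sign. It was 0.39 with the splenic macrophage covariate, 0.81 with the neutrophil covariate and 0.24 with the title series as a block, none of them called.

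Conventional DC markers moved with CpG: 0 of 14 rose and 6 fell in DRKO DCs, and 2 rose and 7 fell in WT DCs. Their median difference was -0.34 in DRKO and -0.28 in WT DCs. Of 12 B cell markers tested, 4 fell in DRKO and 6 in WT DCs, and none rose. The level of the B cell list, the median of its gene-centred log2 values, lay at -0.39 to 0.08 in DRKO CpG, 0.20 to 0.45 in DRKO unstimulated, -0.30 to -0.23 in WT CpG and 0.26 to 0.31 in WT unstimulated arrays, with 9 to 12 of its 12 markers above the array median. Of 7 monocyte markers, 2 fell in DRKO and 3 in WT DCs, with a median difference of 0.10 in DRKO and -0.59 in WT DCs. Of 18 neutrophil markers, 1 rose in DRKO and 2 in WT DCs, with a median difference of 0.75 in DRKO and 0.63 in WT DCs. For all these counts, the shares over all genes were 4.54% higher and 5.76% lower in DRKO DCs, and 8.24% higher and 13.3% lower in WT DCs. With the neutrophil level as a covariate, the CpG effects on Mapk14, Dusp6, Dusp2 and Dusp5 still passed in both genotypes. The part of the conventional DC, B cell and monocyte markers in these effects was not tested.

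**Figure D3:**
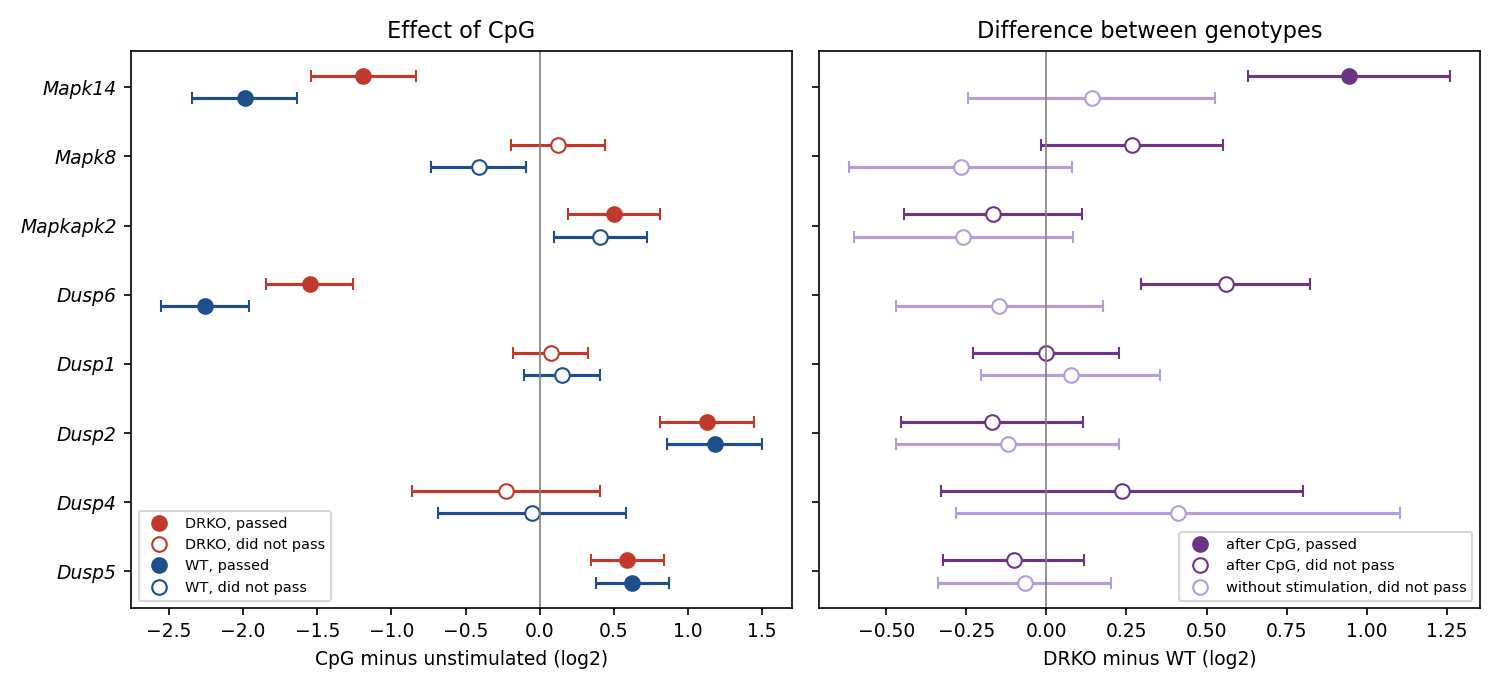
CpG effects (left, CpG minus unstimulated) and genotype differences (right, DRKO minus WT) of the 8 genes on the log2 scale; points are limma estimates, bars 95% intervals, and filled points passed at an adjusted p under 0.05. Mapk14 and Dusp6 have the largest CpG effects, and of the genotype differences Mapk14 after CpG (0.94) is the one filled point.

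Without stimulation, none of the 8 passed the test between DRKO and WT DCs, where 0.00748% of all genes (1 gene) was called and 619 genes had an unadjusted p under 0.05. The values lay between -0.27 ± 0.16 for Mapk8 and 0.41 ± 0.31 for Dusp4, with adjusted p of 0.992 or more. The DRKO arrays of Mapk8, Mapkapk2 and Dusp6 all lay below the WT arrays without stimulation, 3 of 8 genes, and 34.2% of all genes had groups that did not overlap. For Mapk14 the difference was 0.14 (95% interval -0.24 to 0.53) and for Dusp6 -0.15 (-0.47 to 0.18). After CpG, Mapk14 was the 1 gene of the 8 that was called, where 0.12% of all genes (16 genes) were called, 0.0524% higher and 0.0673% lower in DRKO DCs. Averaged over both conditions, none of the 8 was called, where 0.0972% of all genes were (13 genes, 0.0374% higher and 0.0598% lower), and Mapk14 had 0.54 ± 0.11 (adjusted p = 0.130).

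After CpG, Mapk14 lay at 8.29 to 8.77 in DRKO arrays and at 7.41 to 7.63 in WT arrays, a difference of 0.94 ± 0.14 or 1.92-fold (adjusted p = 0.0440). The groups did not overlap for Mapk14, Dusp6 and Dusp5 (lower in DRKO DCs), 3 of 8 genes, against 19.2% of all genes. The adjusted p lay close to the threshold and passed in 11 of 23 alternative fits, with values of 0.73 to 1.17 and adjusted p of 0.00112 to 0.153. Of the 10 fits that left out 1 array, 9 missed it, with values of 0.80 to 0.99 and adjusted p of 0.0735 to 0.150, and the one without DRKO CpG 1 passed (1.04, adjusted p = 0.0173). Leaving out an array of either genotype ended the call, unstimulated arrays included. Within the samples numbered under 20 the difference was 0.73 (2 against 2 arrays), and within those numbered 20 and over it was 1.36 (1 against 1).

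Dusp6 had the second largest genotype difference after CpG, at 8.64 to 8.88 in DRKO arrays against 8.05 to 8.36 in WT arrays. The groups did not overlap, and the difference was 0.56 ± 0.12 (1.47-fold, adjusted p = 0.0803). It passed in 2 of 23 alternative fits. With the title series as a block the value was unchanged at 0.56 (adjusted p = 0.0414), and 2.21% of all genes were called. Without DRKO CpG 1 it was 0.64 (adjusted p = 0.0447), and 2% of all genes were called, against 0.12% in the reported fit. With the mean of both probe sets the difference was 0.26 (adjusted p = 0.260), and the dimmer probe set averaged 4.48 in DRKO CpG and 4.52 in WT CpG arrays. Within the samples numbered under 20 it was 0.43, and within those numbered 20 and over 0.82. Mapk8 had 0.27 ± 0.13 (adjusted p = 0.378), and the other 5 genes lay between -0.17 and 0.24.

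**Figure D4:**
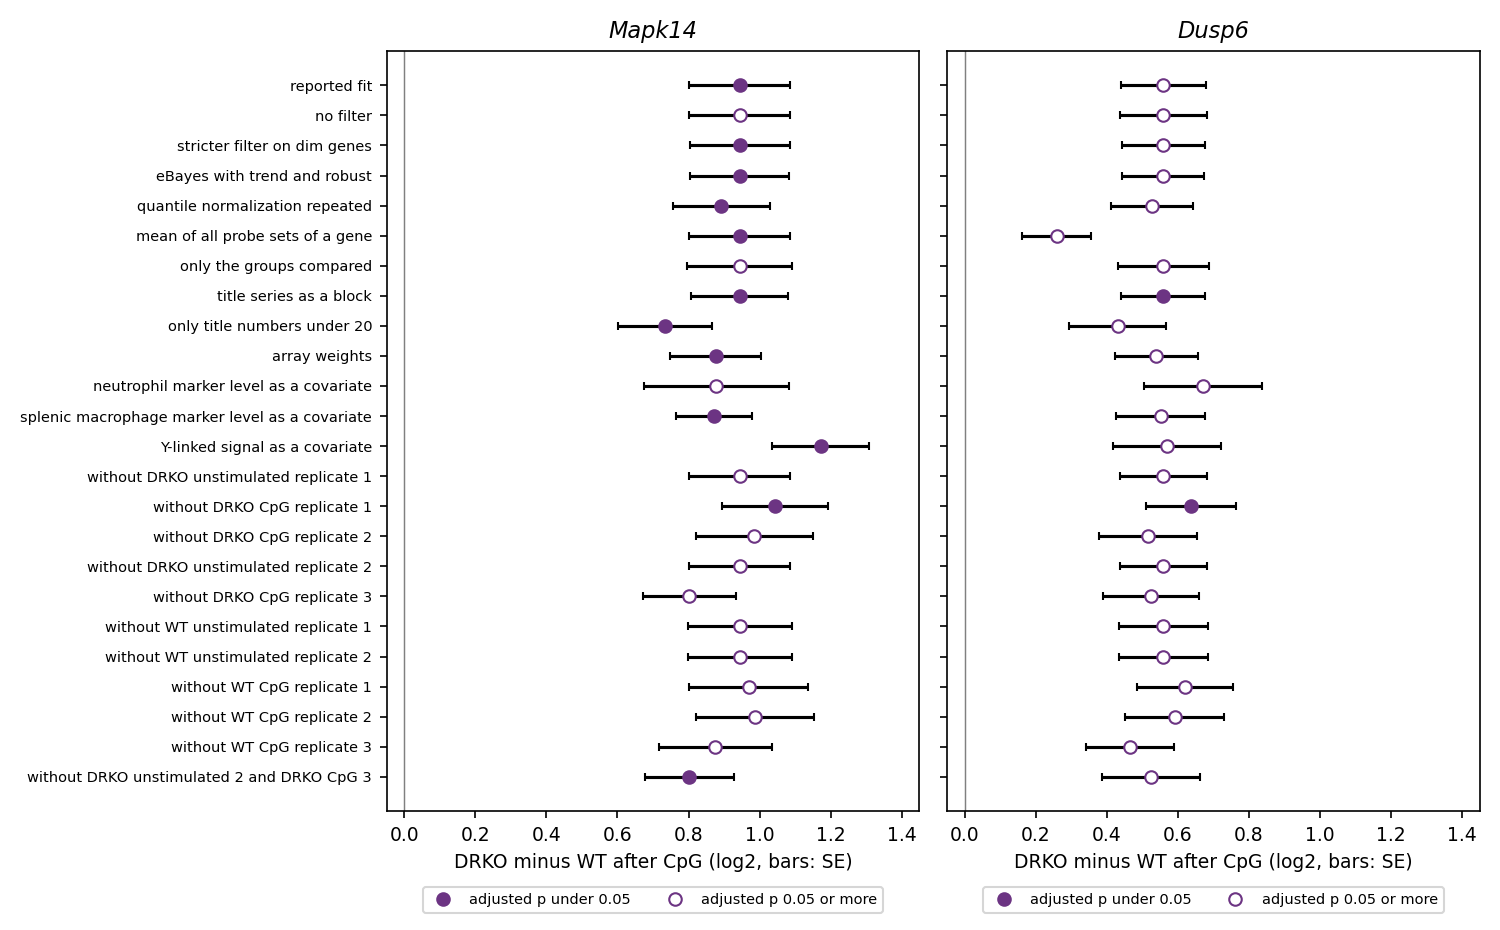
DRKO minus WT after CpG for Mapk14 and Dusp6 in the reported fit and in each alternative; points are log2 differences, bars the SE, and filled points have an adjusted p under 0.05. All Mapk14 values lie between 0.73 and 1.17 and all Dusp6 values between 0.26 and 0.67, while the call varies. By construction, both values stay unchanged with another filter or moderation, with the title block or without an unstimulated array. The CpG groups did not overlap for either gene, so leaving out 1 array could not change the direction.

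The neutrophil markers had a median difference, DRKO minus WT, of -1.41 after CpG and -1.11 without stimulation, where Mapk14 differed by 0.14. Their list level was 0.13, -0.05 and -1.27 in DRKO CpG and 1.48, 1.90 and -0.04 in WT CpG arrays, with 8 to 17 of 18 markers above the array median over all arrays, and none of the 18 was called. Without stimulation that level was -0.86 and -1.425 in DRKO and -0.02 and 0.48 in WT arrays. With that level as a covariate, Mapk14 had 0.88 ± 0.20 (adjusted p = 0.153) and Dusp6 0.67 ± 0.17 (adjusted p = 0.188). With the splenic macrophage level as a covariate Mapk14 had 0.87 ± 0.11 (adjusted p = 0.00802), where 1.07% of all genes were called. With Y-linked signal it had 1.17 ± 0.14 (adjusted p = 0.00112), where 5.74% were called, against 0.12% in the reported fit. No WT array had Y-linked signal, so that covariate rested mainly on the DRKO arrays. There it cannot be told apart from title series and macrophage level. Mapk14 was at 8.29, 8.41 and 8.77 on the same DRKO CpG arrays and at 7.60, 7.63 and 7.41 on the same WT CpG arrays. The part of the neutrophil markers in the Mapk14 difference was not tested beyond their covariate.

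The difference between the CpG effects is the direct test of whether the genotypes responded differently. It was 0.80 ± 0.22 for Mapk14 (unadjusted p = 0.00475, adjusted p = 0.761), 0.71 ± 0.19 for Dusp6 (unadjusted p = 0.00351, adjusted p = 0.761) and 0.54 ± 0.20 for Mapk8 (adjusted p = 0.818), from limma. None of the 8 passed, where 0.00748% of all genes (1 gene) was called and 756 had an unadjusted p under 0.05. The 95% intervals were 0.30 to 1.30 for Mapk14 and 0.29 to 1.12 for Dusp6. The CpG decreases of both were smaller in DRKO than in WT DCs in value, and this difference was not called in any of 22 alternative fits. For Dusp2 and Dusp5 it was -0.05 (95% interval -0.50 to 0.40) and -0.03 (-0.38 to 0.31).

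The genes whose levels followed the called ones most closely over the 10 arrays were found by the root-mean-square difference of centred log2 profiles. For Mapk14 they were Lbh (0.142), Tbc1d31 (0.153) and Myo1f (0.180), and for Dusp6 Stk10 (0.196), Xcr1 (0.219) and Mettl7a1 (0.228). Xcr1, the chemokine receptor of cross-presenting conventional DCs and one of the DC markers used here, was also lower after CpG, at 5.97, 6.12 and 6.53 in DRKO CpG and 7.97 and 7.87 in DRKO unstimulated arrays. It was at 5.23, 5.66 and 5.54 in WT CpG and 7.93 and 8.10 in WT unstimulated arrays. For Dusp2 they were Plagl2 (0.120), Arhgap26 (0.126) and Cd274 (0.139), which encodes the checkpoint ligand PD-L1. For Dusp5 they were Heatr6 (0.0786), Rnf19b (0.0831) and Myo1g (0.0853). Since the 10 arrays share the CpG contrast, these are descriptions.

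Around these genes, 9 lists of the MAP kinase pathway held 125 genes, of which 111 had a probe set and 100 were tested. In DRKO DCs 7 rose and 11 fell with CpG, 18 of 100, where 10.3% of all genes were called (4.54% higher and 5.76% lower). In WT DCs 9 rose and 21 fell, 30 of 100, where 21.6% of all genes were called (8.24% higher and 13.3% lower). The same shares over all genes apply to the counts of the single lists. 15 were called in both genotypes, 3 in DRKO DCs alone and 15 in WT DCs alone, and for no pathway gene was the interaction of genotype and CpG called. The median effect over the 100 was -0.06 in DRKO and -0.14 in WT DCs, against -0.04 over all genes in each. None of the 100 was called between the genotypes in either condition. When each array was left out in turn, 3 of the 18 DRKO calls and 14 of the 30 WT calls passed in all 10 fits.

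**Figure D5:**
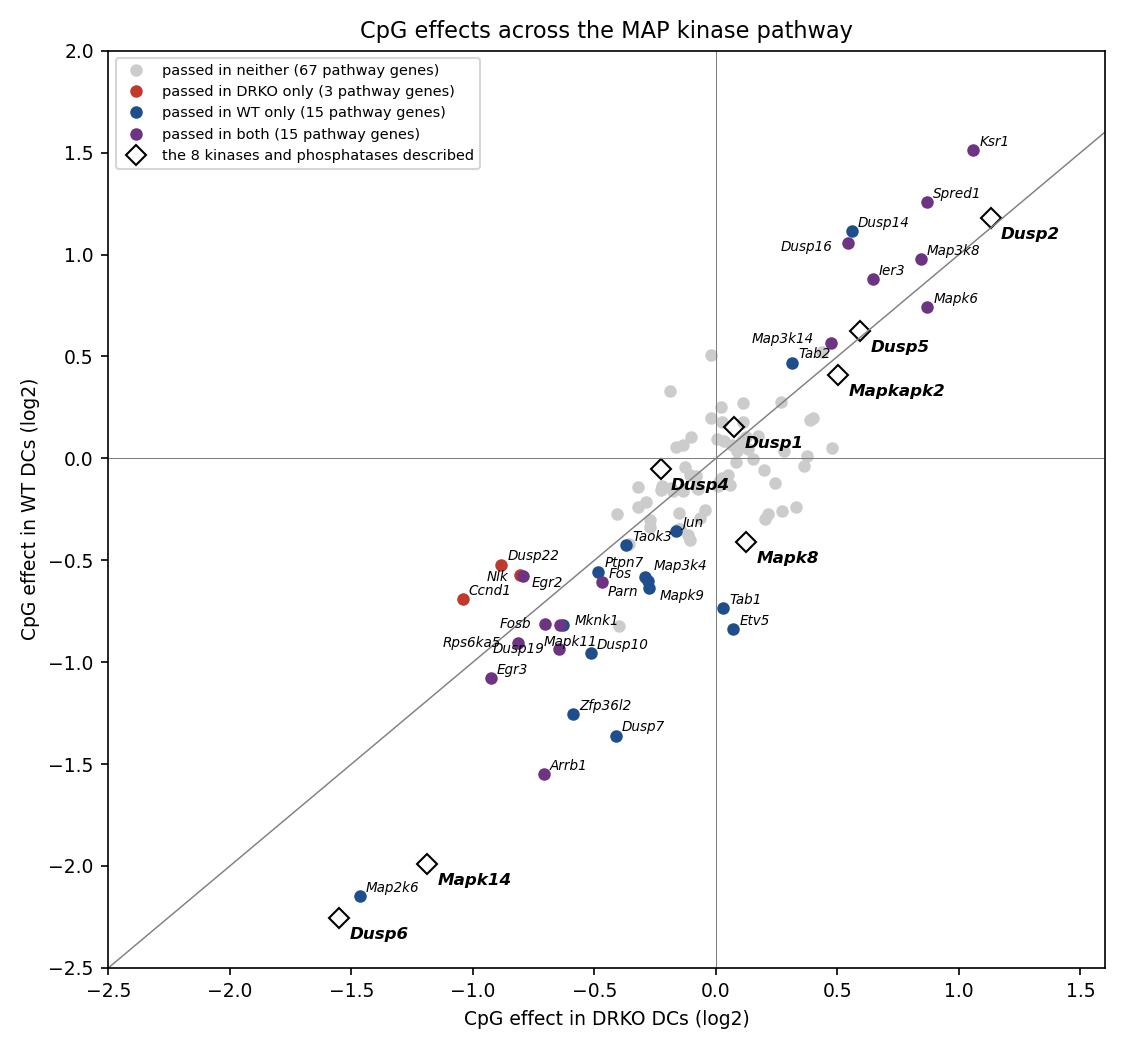
CpG effect in DRKO DCs (x axis) against WT DCs (y axis), in log2, for the 100 pathway genes tested (dots, coloured by where they passed) and the 8 genes described (diamonds); the line marks equal effects. Ksr1, Spred1 and Dusp2 lie at the upper right, and Mapk14, Dusp6 and Map2k6 at the lower left.

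Upstream, of 23 MAP3 kinases and activators tested 2 rose and 0 fell in DRKO DCs, and 3 rose and 3 fell in WT DCs. Map3k8, the kinase Tpl2 that feeds the ERK arm below TLRs, was at 0.84 ± 0.18 in DRKO (adjusted p = 0.0164) and 0.98 ± 0.18 in WT DCs (adjusted p = 0.00379). Map3k14, which encodes the NF-kB-inducing kinase, rose by 0.47 in DRKO and 0.57 in WT DCs. In WT DCs Tab2, an adaptor of TAK1, rose by 0.47, while the adaptor gene Tab1 (-0.73) and the kinase genes Map3k4 (-0.58) and Taok3 (-0.42) fell. Map3k7, which encodes TAK1 itself, was at -0.08 in DRKO (adjusted p = 0.773) and -0.15 in WT DCs (adjusted p = 0.495).

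Of 6 MAP2 kinases tested none was called in DRKO and 1 fell in WT DCs. It was Map2k6, which encodes MKK6, a direct activator of p38, at -2.15 ± 0.45 in WT DCs (adjusted p = 0.00661) and at -1.47 ± 0.45 in DRKO DCs (adjusted p = 0.0637). Map2k3, which encodes the other main p38 activator, was at 0.44 in DRKO (adjusted p = 0.253) and 0.52 in WT DCs (adjusted p = 0.128). Map2k1, an ERK activator, was at -0.02 in DRKO (adjusted p = 0.960) and 0.51 in WT DCs (adjusted p = 0.0682). The WT call of Map2k6 was lost without WT unstimulated 2 (-2.06, adjusted p = 0.0617). In DRKO DCs its decrease passed in 7 of 22 alternative fits, among them the one without DRKO CpG 3 (-2.08, adjusted p = 0.000142).

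Of 9 other MAP kinases, 1 rose and 2 fell in each genotype. Mapk6, the atypical kinase ERK3, rose by 0.87 in DRKO and 0.74 in WT DCs. Mapk11, which encodes p38β, was at -0.64 in DRKO and -0.82 in WT DCs, the same direction as Mapk14. Mapk9, which encodes JNK2, was at -0.27 in DRKO (adjusted p = 0.255) and was at -0.63 in WT DCs (adjusted p = 0.00868). Nlk, the Nemo-like kinase, was at -0.81 in DRKO (adjusted p = 0.0228) and -0.57 in WT DCs (adjusted p = 0.0513). Of 6 kinases activated by MAP kinases, Rps6ka5, which encodes the chromatin kinase MSK1, fell in both (-0.81 in DRKO and -0.91 in WT DCs), and Mknk1, which acts on the cap-binding factor eIF4E, passed in WT DCs (-0.63 in DRKO, adjusted p = 0.0534, and -0.82 in WT DCs, adjusted p = 0.00971). Mapkapk3, the closest relative of Mapkapk2, was at -0.22 in DRKO (adjusted p = 0.410) and -0.14 in WT DCs (adjusted p = 0.386).

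Of 15 other dual-specificity phosphatases tested, 1 rose and 2 fell in DRKO DCs and 2 rose and 3 fell in WT DCs. Dusp16, a phosphatase of JNK and p38, was at 0.54 ± 0.13 in DRKO (adjusted p = 0.0256) and 1.06 ± 0.13 in WT DCs (adjusted p = 0.000390). Dusp14 was at 0.56 in DRKO (adjusted p = 0.0694) and rose by 1.12 in WT DCs (adjusted p = 0.00146). Dusp7, a cytoplasmic ERK phosphatase like Dusp6, was at -0.41 in DRKO (adjusted p = 0.0909) and -1.36 in WT DCs (adjusted p = 0.000172). Dusp10, a phosphatase of p38 and JNK, was at -0.52 in DRKO (adjusted p = 0.220) and -0.95 in WT DCs (adjusted p = 0.0184). Dusp19 fell in both genotypes (-0.64 in DRKO and -0.94 in WT DCs), and Dusp22 passed in DRKO DCs (-0.88 in DRKO, adjusted p = 0.0206, and -0.52 in WT DCs, adjusted p = 0.0918).

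Of 8 tyrosine phosphatases, Sprouty and Spred genes tested, Spred1, an inhibitor of Ras to ERK signalling, rose by 0.87 in DRKO (adjusted p = 0.00512) and 1.26 in WT DCs (adjusted p = 0.000269). Ptpn7, a tyrosine phosphatase of ERK and p38, fell in WT DCs (-0.49 in DRKO, adjusted p = 0.105, and -0.56 in WT DCs, adjusted p = 0.0429). Spry2 was at 0.28 in DRKO (adjusted p = 0.708) and 0.04 in WT DCs (adjusted p = 0.959). Among 9 scaffolds, Ksr1, which holds the ERK cascade together, rose by 1.06 ± 0.14 in DRKO (adjusted p = 0.00149) and 1.51 ± 0.14 in WT DCs (adjusted p = 8.97e-05). Arrb1, which encodes β-arrestin 1, was at -0.71 in DRKO (adjusted p = 0.0356) and -1.55 in WT DCs (adjusted p = 0.000324).

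Of 17 transcripts that respond to ERK signalling, 1 rose and 5 fell in DRKO DCs and 1 rose and 6 fell in WT DCs. The immediate-early genes Fosb (-0.70 in DRKO and -0.81 in WT DCs), Egr3 (-0.93 and -1.08), Egr2 (-0.79 and -0.58) and Fos (-0.47 and -0.61) fell in both. Ier3, an immediate-early gene also driven by NF-kB, rose by 0.65 in DRKO and 0.88 in WT DCs. Ccnd1, which encodes cyclin D1, passed in DRKO DCs (-1.04 in DRKO, adjusted p = 0.0276, and -0.69 in WT DCs, adjusted p = 0.0800). Etv5, an ETS transcription factor, passed in WT DCs (0.07 in DRKO, adjusted p = 0.884, and -0.84 in WT DCs, adjusted p = 0.0176), as did Jun, a subunit of AP-1 (-0.16 in DRKO, adjusted p = 0.400, and -0.36 in WT DCs, adjusted p = 0.0387). Of 7 mRNA-binding substrates of the p38 and MK2 arm, none was called in DRKO DCs, and Zfp36l2 (-1.26) and Parn (-0.60) fell in WT DCs. Zfp36, which encodes tristetraprolin, the MK2 substrate that destabilises cytokine mRNAs, was at 0.05 in DRKO (adjusted p = 0.844) and -0.08 in WT DCs (adjusted p = 0.696).

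Fosb, Ksr1 and Spred1 were the 3 pathway genes whose DRKO call passed in all 10 fits without 1 array. Without DRKO unstimulated 2 the calls of Mapk6 (0.88), Egr2 (-0.67) and Egr3 (-0.64) were lost, and without DRKO unstimulated 1 that of Rps6ka5 (-0.73). The calls of Map3k8 (0.71 and 0.72), Nlk (-0.85 to -0.77), Ccnd1 (-1.05 to -0.77), Ier3 (0.57 to 0.70), Dusp16 (0.50 to 0.56), Dusp19 (-0.68 to -0.44), Dusp22 (-0.99 to -0.71) and Mapk11 (-0.72 to -0.54) were each lost without 2 to 4 of the DRKO arrays DRKO CpG 1, DRKO CpG 2, DRKO unstimulated 1 and DRKO unstimulated 2. Map3k14 (0.42 to 0.53) lost its call in 7 of the 10 fits, Arrb1 (-0.71 to -0.39) in 5 and Fos (-0.52 to -0.39) in all 10, so that WT arrays ended these calls too.

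In WT DCs the 14 calls that passed in all 10 fits were those of Fosb, Egr3, Ier3, Map3k8, Ksr1, Arrb1, Rps6ka5, Zfp36l2, Mapk11, Dusp7, Dusp14, Dusp16, Dusp19 and Spred1. Without WT unstimulated 2 alone, the calls of Fos (-0.46), Mapk6 (0.72), Mapk9 (-0.51), Map2k6 (-2.06), Tab2 (0.39), Mknk1 (-0.74) and Parn (-0.52) were lost, and without WT unstimulated 1 alone that of Map3k14 (0.44). Dusp10 (-0.99 and -0.92) was lost without either of these arrays, Tab1 (-0.64 and -0.61) without WT unstimulated 2 or WT CpG 1, and Etv5 (-0.85 to -0.74) without any of those 3. Egr2 (-0.57 to -0.33) was lost without WT unstimulated 2, WT CpG 1 or WT CpG 3, Taok3 (-0.46 to -0.37) without any WT array but WT CpG 3, and Jun (-0.41 to -0.30) without any of the 5. Map3k4 (-0.68 to -0.44) and Ptpn7 (-0.61 to -0.45) were lost in 5 fits each, 1 of which left out a DRKO array, DRKO CpG 2 for Map3k4 and DRKO CpG 1 for Ptpn7. With the mean of all probe sets of a gene, Etv5 was at -0.35 (adjusted p = 0.143) and Map3k4 at -0.33 (adjusted p = 0.144) in WT DCs, so neither passed.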

How the data were processed

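Gene expression was measured with 1 Affymetrix Mouse Gene 2.0 ST array per sample in 10 samples. Per the submitters' processing notes, the authors used RMA and Affymetrix Expression Console; the deposited numbers are log2 intensities of probe sets. Neither a build nor a version nor the number of runs is stated. RMA corrects background, equalises distributions and summarises probes, which can compress large differences. Of 41345 probe sets, 23521 had 1 gene symbol, 1814 several and 16010 none in the platform annotation, and 23328 also matched a gene identifier of the GRCm38.p6 reference table.

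From these values, the probe set with the highest mean was kept for each of 22180 genes. Genes above the array median on at least 2 arrays were tested (13371). limma 3.58.1 in R 4.3.3 fitted 4 group means to all 10 arrays (6 residual and 4.49 prior degrees of freedom), with Benjamini-Hochberg adjustment over all genes tested and calls at an adjusted p under 0.05. The script was tested on simulated data. Samples were grouped by the labels' source names. The pathway genes named are, for each list and CpG contrast, up to 5 called genes of smallest p, every called gene of the genotype contrasts up to 4, and genes taken by name. Genes of like pattern are the 3 nearest to each gene called in WT DCs. The genes, lists and probe set rule were chosen with earlier results of these data known. Alternatives changed the filter, the normalization, the moderation, the probe sets, the arrays, the title series and marker covariates. Figures were drawn with matplotlib 3.10.9.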

Additional observations from a re-analysis of the deposited data

Results flagged for a closer look

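Dusp6 lay on opposite sides in the 2 conditions. Every DRKO array was below every WT array without stimulation (10.28 and 10.41 against 10.44 and 10.54), and every DRKO array was above every WT array after CpG (8.64 to 8.88 against 8.05 to 8.36). The difference of the CpG effects was 0.706, with an adjusted p of 0.761 from limma, so the opposite directions by array were seen but did not pass the test of the difference. Without stimulation the gap between the nearest DRKO and WT arrays was small, and 34.2% of all genes had groups of 2 that did not overlap there.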

How the results depend on the processing

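The genes of the report were refitted under 22 listed alternatives and 1 chosen after seeing the data, which left out DRKO unstimulated 2 and DRKO CpG 3. Of 1088 alternative values of the 8 genes, 999 kept direction and side of the threshold, 31 fell short of it, 17 newly passed, 41 changed sign, and none of the 41 passed the threshold in the reported fit; the largest reported size among them was 0.41. Of the 8 genes, 4 to 6 were called for CpG in WT DCs under all alternatives and 0 without stimulation and for the difference of CpG effects. For CpG in DRKO DCs the count of 5 became 3 with only the groups compared, with only samples numbered under 20 and in the added fit, and 3 to 5 without 1 array. After CpG, the count of 1 became 0 without a filter on dim genes, with only the groups compared and with the neutrophil covariate. It became 2 with title series as block, where 2.21% of all genes were called. Without 1 array it was 0 to 2, and 2 without DRKO CpG 1, where 2% of all genes were called. Averaged over stimulation, 0 became 1 with Y-linked signal as a covariate (Mapk14, 0.74, adjusted p = 0.00282, where 6.68% of all genes were called). For the pathway genes, the 18 calls for CpG in DRKO DCs became 4 with only the groups compared and 5 to 22 without 1 array, and the 30 in WT DCs became 15 to 34. DRKO minus WT without stimulation, 0 became 1 with Y-linked signal as a covariate (Etv5, where 2.89% of all genes were called). After CpG, 0 became 1 with a trended, robust moderation (Fosb, where 0.568% of all genes were called). It became 2 with title series as block (Fosb and Zfp36l2, 2.21%) and 1 with array weights (Fosb, 0.935%). With Y-linked signal it became 4 (Map2k6, Mapk11, Myc and Spred1, where 5.74% of all genes were called). Without 1 array it was 0 to 1 (Map3k9, without DRKO CpG 1, 2%). Averaged over stimulation it became 1 with trended, robust moderation (Fosb) and 6 with Y-linked signal (Etv5, Fosb, Lamtor3, Map2k6, Mapk11 and Myc, where 6.68% of all genes were called). These genes were named after their values were seen, and where no construction shows it, the cause was not tested. Over all genes, 3.01% to 16.3% were called for CpG in DRKO DCs and 9.55% to 30.8% in WT DCs across the alternatives. No paired analysis was possible because the sample numbers are all different and the labels pair no samples across groups. With 2 unstimulated arrays per genotype, Dusp4 has the widest intervals, and levels near the array median are the least certain.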
